A study of Mus musculus with 42 samples.

Results

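Pax3, Pax7, Dmrt2, Lbx1, Meox1, Meox2, Pitx3 and Barx2 are transcription factors that act early in the muscle lineage, and they were taken by symbol from the RNA-seq count tables, where they make up 8 of 24466 gene symbols. RNA was sequenced from iPax7 cells kept in 0.75 µg/ml doxycycline (+Dox, 3 replicates), from iPax7 cells 3 days after doxycycline was removed (-Dox 3d, 2 replicates) and from satellite cells sorted from Pax7-ZsGreen reporter mice (3 replicates). iPax7 cells are mouse embryonic stem cell derivatives that carry a doxycycline-inducible Pax7 transgene, in the +Dox and the -Dox cultures alike, and that were sorted as PDGFαR+Flk-1- muscle precursors. The same study profiled open chromatin by ATAC-seq in 10 conditions, 4 histone marks in iPax7 cells and C2C12 myoblasts, and Pax7 binding in +Dox iPax7 cells. The ATAC-seq conditions were satellite cells, iPax7 cells in +Dox and 12 h, 24 h and 3 days after its removal, C2C12 myoblasts in 10% fetal bovine serum (parent line, Flag control and Pax7-Flag), and myotubes of iPax7 and of C2C12 cells in medium with 2% horse serum. C2C12 is an established mouse myoblast line, and its Pax7-Flag derivative expresses tagged Pax7 beside a Flag control line. Each histone mark was read in 4 lists: iPax7 +Dox, iPax7 -Dox 3d, C2C12 Flag control and C2C12 Pax7-Flag. The histone marks in iPax7 myotubes were not read.

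Muscle of the trunk and limbs arises from the dermomyotome, the epithelial dorsal part of the somite. Pax3 and Pax7 are paralogs that bind DNA with a paired domain and a homeodomain; Pax3 leads in the embryonic dermomyotome and Pax7 marks the satellite cells, the stem cells of adult muscle. Around them act Meox1 and Meox2, homeodomain factors of the somite, Dmrt2, a DM-domain factor of the dermomyotome that lies downstream of Pax3, Lbx1, a homeodomain factor of precursors that migrate into the limb, Pitx3, a homeodomain factor of differentiating muscle, and Barx2, a homeodomain factor of satellite cells and myoblasts.

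Of 2455 Pax7-bound regions in +Dox cells, 10 had the start site of one of the 8 genes as their nearest annotated start site: 4 at Dmrt2, 3 at Pax7, 2 at Pax3 and 1 at Pitx3. Lbx1, Meox1, Meox2 and Barx2 had none. By the same nearest-start rule, 6% of 22225 protein-coding genes had at least 1 region. The windows below are 200 bases around the strongest +Dox ATAC-seq summit in each of 5 regions, numbered along the chromosome within each gene. Each of the 5 carries a change described later. Pax3 site 2, Pax7 sites 1 and 2 and Dmrt2 site 1 also carry changes described later and are not printed. The printed windows were read from the plus strand of NCBIM37 (mm9). Capitals mark matches, on either strand, to CAGCTG (an E-box, the site of the myogenic bHLH factors), GTCACG (a paired-domain core), TGANTCA (AP-1) or TAAT (the homeodomain core, which reads ATTA on the other strand).
Dmrt2 site 3: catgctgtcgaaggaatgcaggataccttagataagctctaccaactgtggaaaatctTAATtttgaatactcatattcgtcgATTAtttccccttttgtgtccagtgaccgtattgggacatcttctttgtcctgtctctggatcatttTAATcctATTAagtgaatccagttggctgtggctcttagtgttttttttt
Dmrt2 site 4: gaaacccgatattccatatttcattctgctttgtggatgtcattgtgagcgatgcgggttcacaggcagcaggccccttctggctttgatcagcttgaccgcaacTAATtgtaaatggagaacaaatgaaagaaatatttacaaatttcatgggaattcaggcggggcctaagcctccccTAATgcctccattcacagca
Pax3 site 1: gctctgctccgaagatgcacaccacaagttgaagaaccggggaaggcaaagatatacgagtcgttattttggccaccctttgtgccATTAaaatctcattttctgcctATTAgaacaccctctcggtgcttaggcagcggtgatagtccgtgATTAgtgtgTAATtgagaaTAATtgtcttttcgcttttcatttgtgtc
Pax7 site 3: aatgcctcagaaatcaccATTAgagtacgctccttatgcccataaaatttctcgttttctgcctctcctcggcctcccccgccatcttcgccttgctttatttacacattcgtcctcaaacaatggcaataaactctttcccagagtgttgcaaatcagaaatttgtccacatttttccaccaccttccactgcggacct
Pitx3 site 1: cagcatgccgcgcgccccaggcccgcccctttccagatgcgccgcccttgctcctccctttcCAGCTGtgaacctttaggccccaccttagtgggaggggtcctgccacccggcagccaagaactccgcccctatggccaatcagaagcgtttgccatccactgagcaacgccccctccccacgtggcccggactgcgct

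The window of Dmrt2 site 3 lies at chr19:25755897-25756096, downstream of the gene, and that of Dmrt2 site 4 at chr19:25998397-25998596, 251.54 kb beyond the start site. Pax3 site 1 is at chr1:78116953-78117152 in an intron, Pax7 site 3 at chr4:139347484-139347683 in an intron, and Pitx3 site 1 at chr19:46222928-46223127, just upstream of the start site. TAAT was present in 8 of the 10 whole regions and in 94.5% of all 2455, and in 76.5% of 2275 windows of 200 bases cut the same way, so its presence does not set these windows apart. CAGCTG occurred in 8 of the 10 regions against 43.7% of all regions, TGANTCA in 3 of 10 against 27.2%, and GTCACG only in Pitx3 site 1 against 16.7%. TAAT and ATTA with 2 bases between them, the paired homeodomain motif, occurred in 0 of 10 regions and in 2.04% of all. Of the windows not printed, those of Pax3 site 2 and Pax7 sites 1 and 2 hold CAGCTG and no TAAT. That of Dmrt2 site 1 holds TAAT and no CAGCTG. The printed windows are thus not a balanced sample of these motifs. All of these are matches of letters only, the regions differ in length, and TAAT was added to the search after the windows had been seen.

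Pax7 itself came first, as the gene the inducer drives. Its normalized counts (counts scaled to a common library size) were 12760, 14131 and 11611 in +Dox replicates, 220.6 and 269.6 in -Dox 3d replicates, and 8502, 3926 and 5456 in satellite cells. The 3 groups did not overlap, with +Dox highest and -Dox 3d lowest. After withdrawal Pax7 fell by 5.71 on the log2 scale (SE 0.438; adjusted p = 8.08e-05, edgeR's quasi-likelihood test over 14836 genes). Between +Dox and satellite cells it was higher in +Dox by 1.11 (SE 0.301; adjusted p = 0.015), and between -Dox 3d and satellite cells the log2 difference was -4.60 (SE 0.414; adjusted p = 7.94e-05). Transgene and chromosomal transcripts share exon sequence, so Pax7 counts in iPax7 cells cannot tell them apart.

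Across the 7 genes that passed the filter on low counts, 0 rose and 1, Pax7, fell after doxycycline withdrawal, where 4.66% of all tested genes rose and 3.04% fell. At an unadjusted p under 0.05 in edgeR, and likewise in DESeq2, 1 gene (Meox2) was higher and 2 (Pax7 and Dmrt2) were lower. Over all genes, 11.3% were higher and 10.3% lower at the unadjusted p, and 7.96% and 7.4% in DESeq2. Against satellite cells, +Dox cells had 1 gene higher (Pax7) and 2 lower (Pax3 and Meox2), beside 19.8% of all genes higher and 25.1% lower. The -Dox 3d cells had 0 higher, beside 18.1% of all genes, and 3 lower (Pax7, Pax3 and Dmrt2), beside 20.9%. At an unadjusted p under 0.05, and in DESeq2, 0 of the genes were higher and 5 lower in -Dox 3d, beside 22.4% and 27.2% of all genes at the unadjusted p and 19.8% and 26.4% in DESeq2. The median log2 fold change over the 7 genes was -2.45 after withdrawal against 0 over all genes, -1.56 in +Dox against satellite cells (all genes -0.17), and -4.00 in -Dox 3d against satellite cells (all genes -0.23). Each of these medians is the value of Dmrt2. The 7 genes include Pax7, which the inducer drives, Pitx3 and Barx2, which had few reads, and Meox2, read mostly in satellite cells, as was Barx2. The medians therefore do not show a shift of the genes as a set. The comparisons share samples, so their calls are not independent of each other. For any 1 gene alone, the exact two-sided permutation test cannot go below p = 0.1 with these replicate numbers.

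**Figure D1:**
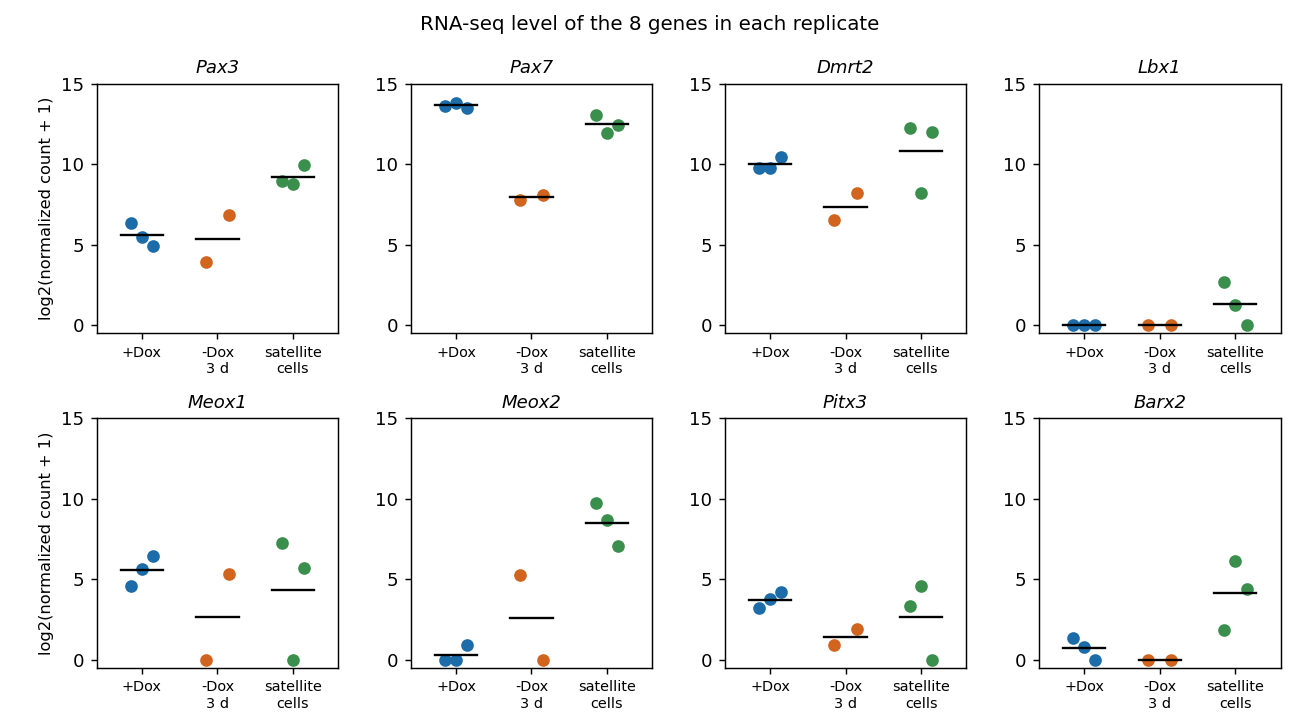
Each point is 1 RNA-seq replicate, as log2(normalized count + 1), for the 8 genes in +Dox and -Dox 3d iPax7 cells and satellite cells; black bars are group means on that scale. Pax7 separates all 3 groups (means 12834, 245.1 and 5961 normalized counts), whereas Dmrt2 in satellite cells spans 289.5 to 4827.

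Pax3, the paralog of Pax7, was lower in iPax7 cells than in satellite cells, both in doxycycline and 3 days after its removal. Its normalized counts were 78.88, 43.69 and 29.14 in +Dox, 13.79 and 114.5 in -Dox 3d, and 500.1, 428.9 and 987.7 in satellite cells. The -Dox 3d replicates lay on either side of the whole +Dox range, and both iPax7 groups lay below every satellite cell replicate. The log2 difference of -Dox 3d over +Dox was 0.34 (95% interval -1.62 to 2.30; adjusted p = 0.914), and without -Dox 3d replicate 2 it was -1.85 (adjusted p = 0.51). Pax3 was lower than in satellite cells by a log2 difference of -3.66 in +Dox (SE 0.866; adjusted p = 0.00793) and -3.31 in -Dox 3d (SE 1.01; adjusted p = 0.0274). The -Dox 3d call was lost without -Dox 3d replicate 1 (adjusted p = 0.121) and without satellite cell replicate 3 (adjusted p = 0.0714).

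Satellite cell libraries also held reads of markers of other cell types, which are given here beside the genes that were higher there. All 5 endothelial markers were lower in +Dox than in satellite cells, where 25.1% of all tested genes were. Their summed normalized counts were 13674 to 19992 in satellite cells and at most 166.7 in iPax7 replicates. The 5 fibroblast markers summed to 43540 to 64307 in satellite cells and 2305 to 9746 in iPax7 cells. Of these, 4 were lower and 0 higher in +Dox, but the mean of Ly6a was 5064 in +Dox and 2622 in satellite cells. Ly6a reached 9644 in the +Dox replicate with the sum of 9746. The 3 Schwann cell markers summed to 1830 to 3160 in satellite cells and at most 91.91 in iPax7 cells. The 5 blood markers summed to 2032 to 9094 and 157.6 to 464.3. In satellite cell replicates, 0 endothelial, fibroblast or Schwann cell markers and 1 to 2 blood markers were at 0, and in iPax7 replicates 3 to 4 of the 5 endothelial markers were. Reads that did not map uniquely made up 23.6% to 30.7% of counted reads in satellite cells and 7.11% to 7.6% in iPax7 cells. The part of these markers and reads in the differences from satellite cells was not tested. Of 10 satellite cell and myoblast markers, 8 were lower and 1 higher in +Dox than in satellite cells, beside 25.1% and 19.8% of all genes. The 1 higher was Pax7 itself, which is in this list. All 10 were lower in -Dox 3d, beside 20.9% of all genes. All 7 markers of differentiating muscle were higher in -Dox 3d than in +Dox (median log2 difference 8.17), beside 4.66% of all genes. Their part in the withdrawal comparison was not tested either. In bulk RNA, fewer cells of a type and less RNA per cell cannot be told apart.

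Dmrt2 had the second highest level per exon length among the 8 genes in +Dox cells. Its normalized counts were 872.9, 865 and 1364 in +Dox, 89.15 and 289.9 in -Dox 3d, and 4827, 289.5 and 3996 in satellite cells. Both -Dox 3d replicates lay below all +Dox replicates, while satellite cell replicate 2 lay at the level of -Dox 3d replicate 2, and the other two satellite cell replicates lay above every iPax7 value. After withdrawal the log2 difference was -2.45 (SE 0.994; adjusted p = 0.188), which did not pass the threshold. It passed with only these 2 groups in the fit (adjusted p = 0.0276), in DESeq2 (0.0445) and without satellite cell replicate 2 (0.0295). Against satellite cells, Dmrt2 differed in +Dox by -1.56 (SE 0.82; adjusted p = 0.148), or by -2.10 without satellite cell replicate 2 (adjusted p = 0.0103). In -Dox 3d it was lower by a log2 difference of -4.00 (SE 1.08; adjusted p = 0.0165), and this was lost without -Dox 3d replicate 1 (adjusted p = 0.112). In satellite cell replicate 2, Pax7 and Pax3 were also at their lowest of the 3 replicates (3926 and 428.9) and Meox1 was at 0, whereas Barx2 (69.7) and Pitx3 (22.79) were at their highest and Meox2 (410.1) lay between the others. The endothelial marker sum was highest in that replicate (19992), and the blood (2032) and Schwann cell (1830) sums were lowest.

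Meox2 was read almost only in satellite cells. Its normalized counts were 855.4, 410.1 and 135.8 there, 0, 0 and 0.9107 in +Dox, and 36.76 and 0 in -Dox 3d. The groups of iPax7 cells overlapped each other and lay below every satellite cell replicate. In +Dox, 1 read in all stood against 1059 in satellite cells, a ratio of pooled, scaled counts of 1768 with a 95% counting interval of 317 to 69885 (adjusted p = 0.00284, edgeR). In -Dox 3d the log2 difference from satellite cells was -4.66 (SE 1.74; adjusted p = 0.0584), which passed in DESeq2 (0.00596) and without -Dox 3d replicate 1 (-11.89; adjusted p = 0.0138). The log2 difference of -Dox 3d over +Dox, 5.55 (adjusted p = 0.106 in edgeR, 0.0142 in DESeq2), rested on the 40 reads of -Dox 3d replicate 1, and without it the sign turned (-1.69).

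Meox1, the paralog of Meox2, gave no call in any comparison. Its normalized counts were 22.54, 49.62 and 85.61 in +Dox, 0 and 38.77 in -Dox 3d, and 150, 0 and 50.11 in satellite cells. All 3 groups overlapped, and the last 2 each held a replicate with 0 reads. The 95% interval of the log2 difference ran from -6.29 to 3.43 after withdrawal and from -4.47 to 3.79 for +Dox over satellite cells, so large differences in either direction lie within them.

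Pitx3, Barx2 and Lbx1 were at the limit of detection in some or all groups. Pitx3 normalized counts were 8.263, 12.59 and 17.3 in +Dox, 0.9191 and 2.77 in -Dox 3d, and 9.213, 22.79 and 0 in satellite cells. Both -Dox 3d replicates lay below all +Dox replicates, on 4 reads against 47, and the log2 difference of -2.71 (SE 2.06) did not pass (adjusted p = 0.519). Barx2 gave 2, 1 and 0 reads in +Dox (1.502, 0.7406 and 0 normalized counts), 0 in both -Dox 3d replicates, and 2, 52 and 15 reads in satellite cells (2.632, 69.7 and 19.78). Every satellite cell replicate lay above every iPax7 replicate on the normalized scale. Satellite cells were above +Dox by a pooled ratio of 38.4 (95% counting interval 12.6 to 191; adjusted p = 0.0641) and at least 22.1-fold above -Dox 3d, taking 3 reads over the group as the floor, with a counting interval that starts at 17.5 (adjusted p = 0.0514). Neither passed in edgeR; both passed in DESeq2 (adjusted p = 0.045 and 0.0203). Lbx1 gave 0 reads in all 5 iPax7 replicates and 4, 1 and 0 in satellite cells, and was not tested. The floor of 3 reads over the group equals 0.794 normalized counts in +Dox and 1.38 in -Dox 3d. The exact 95% counting interval of its 0 reads ends higher, at 0.976 in +Dox and 1.7 in -Dox 3d. These intervals and floors cover counting error only.

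**Figure D2:**
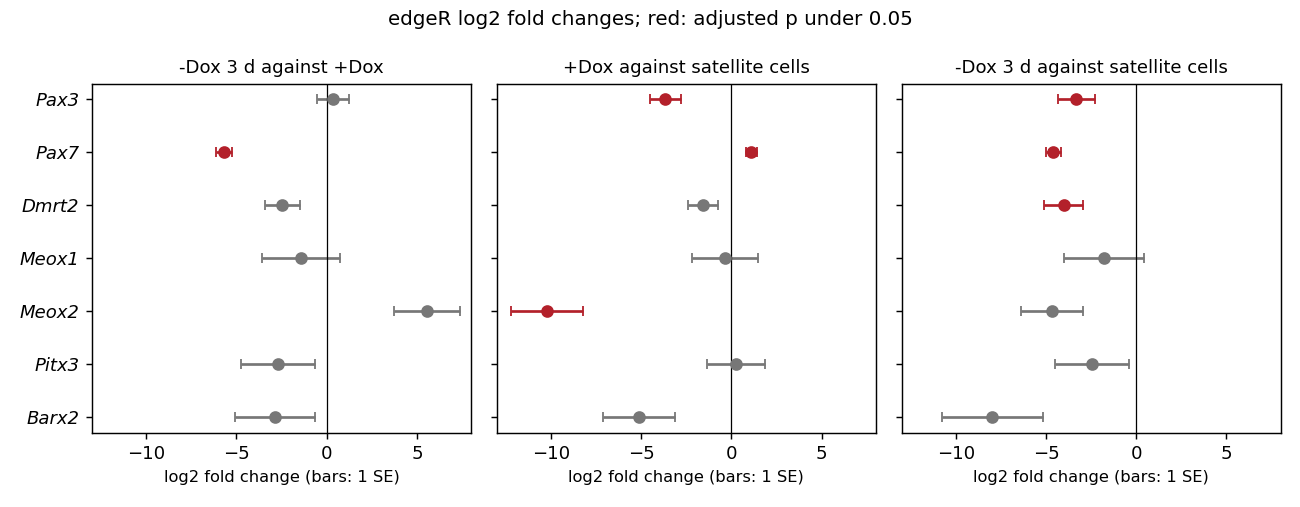
Points are edgeR log2 fold changes of 7 genes (rows) in the 3 comparisons (panels), bars are 1 SE, and red marks an adjusted p under 0.05; Lbx1 was not tested. Pax7 has the shortest bars, -5.71 (SE 0.438) after withdrawal, and Meox2 in +Dox against satellite cells lies farthest from 0.

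Set on a per-length scale (RPKM, from union exon length), the order of the genes differed between groups. In +Dox, Pax7 (46.3 ± 4.55, SD, n = 3) stood above Dmrt2 (9.30 ± 2.57), and Meox1 (0.499 ± 0.300), Pax3 (0.173 ± 0.0874) and Pitx3 (0.171 ± 0.0607) followed with overlapping replicates. In satellite cells, Dmrt2 (27.3 ± 21.7, n = 3) and Pax7 (21.5 ± 8.40) overlapped, as did Pax3 (2.18 ± 1.04) and Meox2 (2.14 ± 1.67), with Meox1, Barx2, Pitx3 and Lbx1 at means of 0.633, 0.339, 0.143 and 0.0188. In -Dox 3d, Dmrt2 (1.71, replicates 0.802 and 2.61) and Pax7 (0.884, replicates 0.796 and 0.972) were no longer separate, and no other gene exceeded 0.391 in either replicate.

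The genes with the most similar pattern to each of 5 members (those with a group mean of at least 50 normalized counts) were ranked by Pearson's r of log2(normalized count + 1) over the 8 replicates, among 11355 or 11356 genes. For Pax7 they were Snx1 (0.995), Dnm3 (0.983) and Serpina3g (0.973). For Dmrt2 they were Gatsl3 (0.979), Cntln (0.964) and Deptor (0.951), and for Pax3 Cecr2 (0.983), Cask (0.978) and Tmem184b (0.978). For Meox2 they were Mrc1 (0.99), Comp (0.984) and Csgalnact1 (0.982); Mrc1, a macrophage receptor, and Comp, a cartilage and tendon matrix protein, were at 0 in +Dox, at means of 30.79 and 16.54 in -Dox 3d and at 388.2 and 420.6 in satellite cells. For Meox1 they were Trim3 (0.935), Tmed1 (0.931) and Gm8773 (0.928). The points share libraries in 3 groups, and differences between the groups enter every r.

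Of 33 other somite genes, 25 were tested. At an unadjusted p under 0.05, 4 rose and 1 fell after withdrawal, beside 11.3% and 10.3% of all genes. In DESeq2 the counts were 2 and 0, beside 7.96% and 7.4%. At the adjusted threshold in edgeR 1 rose and 0 fell, where 4.66% and 3.04% of all genes did. That gene was Ripply1, a transcriptional corepressor needed for somite boundaries to form, with 0 reads in all +Dox and satellite cell replicates and 587.3 and 539.1 normalized counts in -Dox 3d, at least 710-fold above +Dox against a floor of 3 reads over the group, with an exact 95% counting interval that starts at 576 (adjusted p = 0.00711). Against satellite cells, 6 of the 25 were higher and 7 lower in +Dox, and 4 were higher and 6 lower in -Dox 3d. These shares lie near those of all genes, which were 19.8% higher and 25.1% lower in +Dox and 18.1% and 20.9% in -Dox 3d. Of 7 known Pax3 and Pax7 targets, 0 rose and 3 fell after withdrawal, with the same counts at an unadjusted p under 0.05 and in DESeq2. The shares of all genes to set beside them are those given above for the somite genes after withdrawal. Myf5, the first myogenic determination factor, went from 111017, 130664 and 190112 to 12412 and 10749 normalized counts (log2 difference -3.64, adjusted p = 0.000233). Fgfr4, a fibroblast growth factor receptor, went from 2240, 1994 and 1183 to 223.3 and 230.8 (-2.99, adjusted p = 0.0045). Id3, an inhibitor of bHLH factors, went from 54646, 60863 and 98371 to 13584 and 15710 (-2.28, adjusted p = 0.0249). In these 3 genes the replicates of the 2 groups did not overlap, and how many of all genes do so was not counted. The 3 were named because they were called, so the lack of overlap adds no separate support. Of 10 Pax7 cofactor and histone methyltransferase genes, 0 rose and 0 fell in edgeR, also at an unadjusted p under 0.05, and in DESeq2, beside the same shares of all genes.

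The chromatin data were then read at the Pax7-bound regions, for the 4 genes that had any. Each peak list was called once on merged replicates, so presence or absence of a peak carries no replicate error and lists differ in length, from 42675 to 172075 ATAC-seq peaks. All 10 regions lay under a +Dox ATAC-seq peak (95.4% of all 2455 regions did). After withdrawal, 4 of 10 still did at 12 h, 24 h and 3 days, where all regions stood at 63.2%, 63.4% and 68%. Satellite cell peaks covered 8 of 10 (53% of all), or 4 of 10 (40% of all) when only peaks with a −log10 q of at least 10 were counted. Without the 3 regions inside Pax7, the counts were 7 of 7 in +Dox, 4 of 7 after withdrawal and 6 of 7 in satellite cells.

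Dmrt2 site 3, 8.99 kb past the start site, had a 20.1-fold ATAC-seq peak in +Dox, no peak at 12 h, 24 h or 3 days, and a 3.71-fold peak in satellite cells. In C2C12 myoblasts it had no peak in the Flag control and a 14.7-fold peak with Pax7-Flag. H3K27Ac, a mark of active enhancers, covered 83.9% of it in +Dox and none at 3 days, and 91.4% with Pax7-Flag and none in the Flag control. Dmrt2 site 4 likewise had a peak in +Dox (10.2-fold) and satellite cells (8.98-fold) and none at 12 h, 24 h or 3 days, and a 3.43-fold peak over 19.2% of it in iPax7 myotubes. It had no H3K27Ac region in any of the lists read, which leave out iPax7 myotubes, and no peak in C2C12 myoblasts with or without Pax7-Flag. The other two Dmrt2 regions, at 17.78 kb upstream (site 1) and in an exon 1.42 kb past the start site (site 2), were under a peak in all 10 conditions. At site 1, H3K27Ac covered 100% in +Dox and 7.77% at 3 days; at site 2 it covered 100% in both.

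Pax3 site 1 had a peak only in +Dox (3.7-fold) and in C2C12 with Pax7-Flag (3.32-fold), and H3K27me3, the Polycomb mark, covered 100% of it in +Dox and none at 3 days. H3K4me1, an enhancer mark, covered 76.7% of it in +Dox and none at 3 days. In C2C12, H3K4me1 covered 100% with Pax7-Flag and none in the Flag control, and H3K27me3 covered 83.7% and 19.3%. Pax3 site 2, 20.35 kb upstream, was under a peak in all iPax7 and satellite cell lists, with folds of 6.28 in +Dox, 2.57 at 12 h, 5.8 at 24 h and 22.8 at 3 days. H3K27Ac and H3K4me1 each covered 100% of site 2 in +Dox and none at 3 days, while H3K4me3, a promoter mark, covered 100% in both. Pitx3 site 1, 0.57 kb upstream of the start site, was under a peak in all 10 conditions (22-fold in +Dox, 16.2-fold at 3 days), and H3K27Ac covered 88.5% in +Dox and none at 3 days. Over the 10 regions, H3K27Ac was present in 5 in +Dox and 2 at 3 days (73.2% and 37.9% of all regions), and in 6 with Pax7-Flag against 3 in the Flag control (64.4% and 40.6%). H3K4me1 was present in 8 and 6 of 10 in iPax7 cells (91.2% and 73.8%). H3K27me3 was present in 3 of 10 in +Dox and 2 of 10 at 3 days (4.97% and 3.3%). In +Dox it covered 87.2% of Pax7 site 2 and 83.7% of Pax7 site 3.

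**Figure D3:**
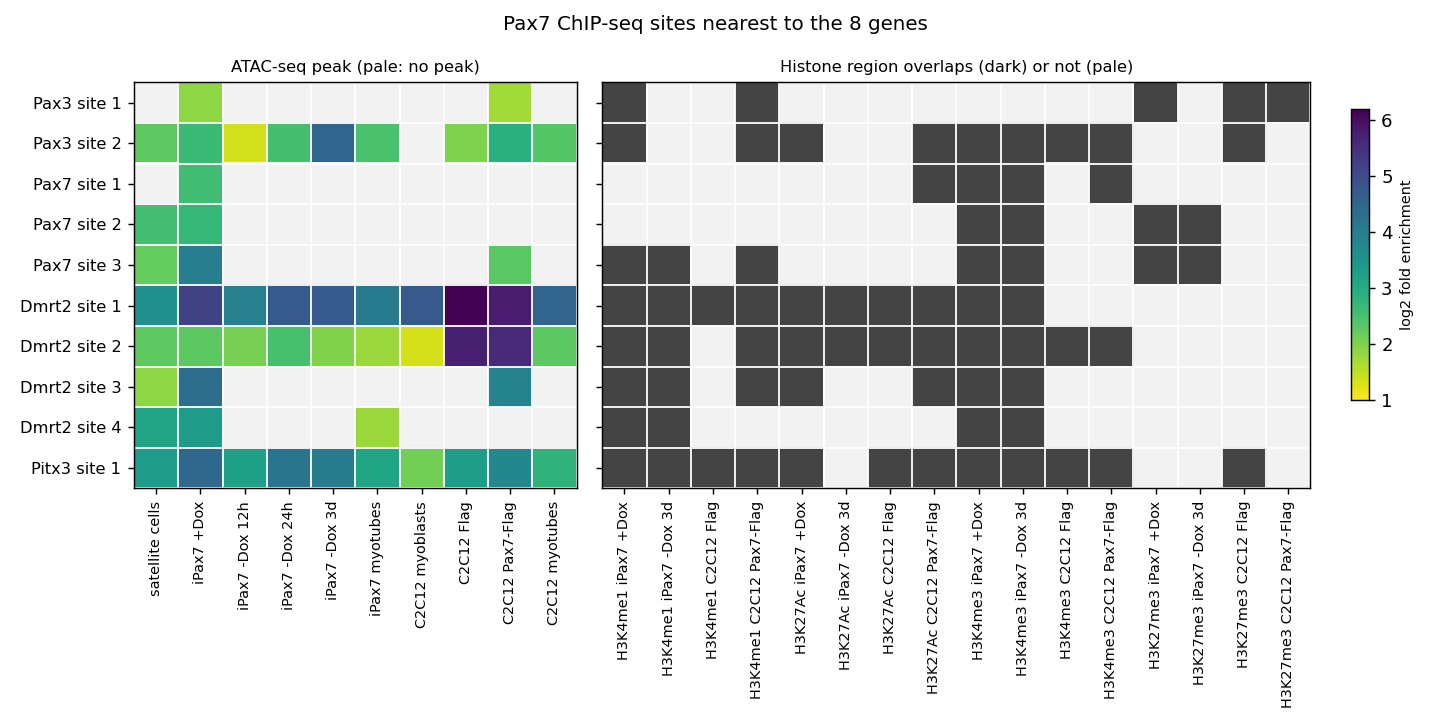
Rows are the 10 Pax7-bound regions; the left panel gives the log2 fold enrichment of the strongest overlapping ATAC-seq peak (pale where there is none), and the right panel whether a histone region overlaps. Dmrt2 sites 3 and 4, Pax3 site 1 and the 3 Pax7 sites have a peak in +Dox and none at 12 h, 24 h and 3 days, and the other 4 regions have one at each.

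At Pax7 itself, peaks lay on most exons in +Dox and in satellite cells. In +Dox, 7 of its 9 exon blocks lay under an ATAC-seq peak, against 0 at 12 h, 1 at 24 h and 1 at 3 days. In satellite cells 8 of 9 did, inside a wide block of peaks described next. Among 1022 protein-coding genes with 9 exon blocks, the median was 1 in both, and Pax7 was the only gene with 7 or more in +Dox and with 8 or more in satellite cells. Pax7 sites 1 and 2 are centred on exons, whereas site 3 lies in an intron and had a 15.8-fold peak in +Dox, a 4.69-fold peak in satellite cells and a 5.05-fold peak with Pax7-Flag. In C2C12 myoblasts, 3 exon blocks lay under peaks with Pax7-Flag and 1 in the Flag control. The exons were examined after the peaks had been seen. Reads from transgene DNA and from chromosomal exons cannot be told apart in the iPax7 and Pax7-Flag lists.

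Satellite cell peaks formed a block around Pax7 that no other condition showed. From chr4:139192197 to chr4:139437032, 245 kb, 70.9% of bases lay under satellite cell peaks, against 0.808% to 3.92% in the other 9 ATAC-seq lists. In the 100 kb beyond its ends, 4.99% and 0.2% lay under satellite cell peaks. It was the longest run in the genome of 20-kb bins with at least 20% under peaks, with 13 bins against 6 in the next, and 0.454% of bins reached that share. The cells came from Pax7-ZsGreen mice; how the reporter was made is not given in the sources used here, and its part in the block was not tested. The satellite cell peaks at the Pax7 start and at Pax7 sites 2 and 3 lie inside this block.

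**Figure D4:**
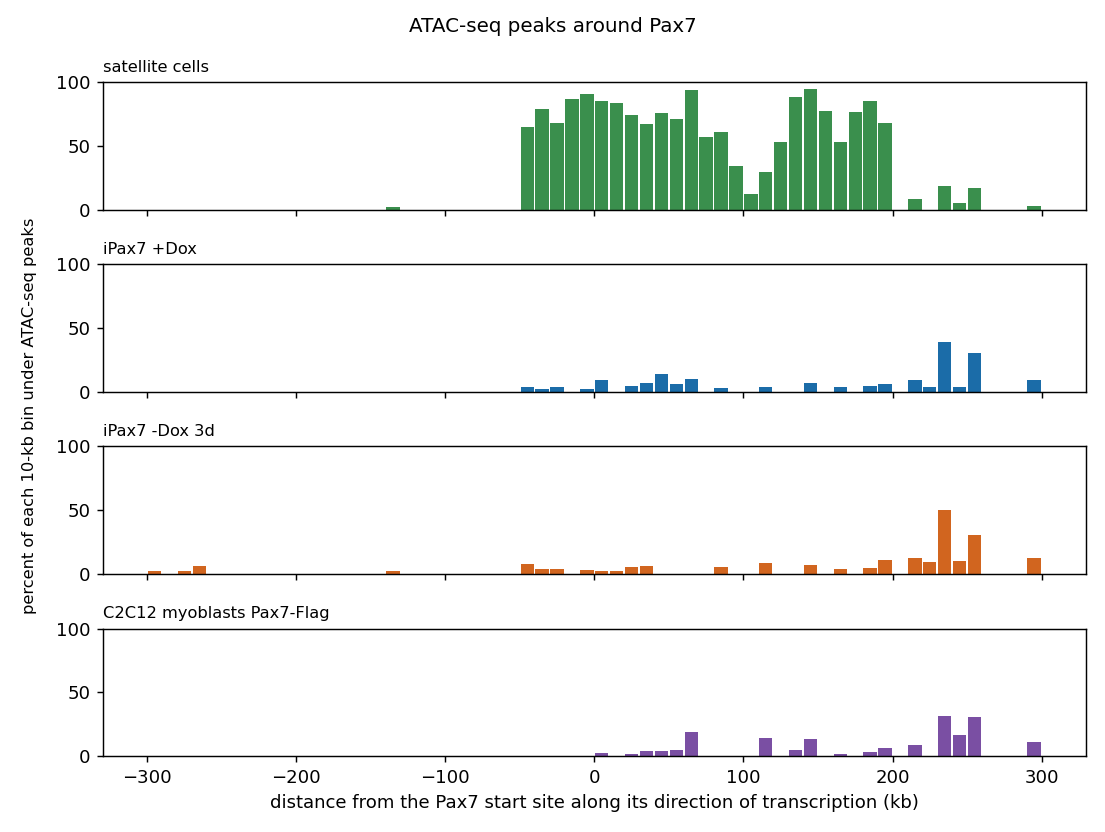
Bars give the percent of each 10-kb bin under ATAC-seq peaks against the distance from the Pax7 start site, positive in the direction of transcription, in satellite cells, +Dox and -Dox 3d iPax7 cells and C2C12 myoblasts with Pax7-Flag. Only the satellite cell panel shows a block, 245 kb long, with sharp ends.

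At the start sites, a peak was counted within 1000 bases. The Pax7 start had an ATAC-seq peak in satellite cells (14.6-fold) and the C2C12 Flag control (8.26-fold) and in 0 of the 5 iPax7 conditions, +Dox included. H3K27me3 regions lay at the Pax7 start in all 4 lists. H3K27Ac and H3K4me3 also lay there in both C2C12 lists. In iPax7 cells H3K27Ac was absent, and H3K4me1 and H3K4me3 were absent in +Dox and present at 3 days. The Dmrt2 start was under a peak in all 10 conditions and free of H3K27me3, with H3K27Ac and H3K4me3 in all 4 lists of each. The Pitx3 start was also under a peak in all 10, although its RNA did not exceed 22.79 normalized counts in any replicate. Unlike the Dmrt2 start, it had H3K27me3 in both C2C12 lists, though in neither iPax7 list within 1000 bases.

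ATAC-seq peaks were also present at the starts of genes with few or no reads. Lbx1, with 0 reads in iPax7 cells, had a peak in +Dox (4.13-fold), at 12 h, at 24 h and in iPax7 myotubes, none at 3 days, and a 16-fold peak in satellite cells, with H3K27me3 and H3K4me3 in all 4 lists of each. Meox2 had a peak in all 5 iPax7 conditions (4.22-fold in +Dox) and in satellite cells (3.91-fold), with H3K27me3 in all 4 lists and H3K27Ac in none. Barx2 had one in all 5 iPax7 conditions and none in satellite cells. Meox1 had peaks in all 5 iPax7 conditions (10.6-fold in +Dox, 3.79-fold at 3 days), and H3K27Ac in +Dox and not at 3 days. H3K27me3 lay within 1000 bases of the Meox1 start in none of the 4 lists, and within 2500 bases in both iPax7 lists. Pax3 had a 10.7-fold peak in satellite cells and a 3.36-fold peak in +Dox, with H3K27me3 in both iPax7 lists and H3K27Ac in none. After withdrawal the Pax3 start had no peak at 12 h, then peaks of 4.69-fold at 24 h, 5.46-fold at 3 days and 5.64-fold in iPax7 myotubes. Of the 8 starts, 7 had a peak in +Dox, 6 at 3 days and 7 in satellite cells, where 63.8%, 66.3% and 59.1% of 22367 protein-coding genes did. H3K27me3 lay at 5 of 8 in +Dox and 5 at 3 days, beside 22.4% and 20.5% of genes, and H3K27Ac at 3 and 2, beside 48.6% and 45.7%. Within 2500 bases H3K27me3 lay at 6 in +Dox and 7 at 3 days, beside 29.4% and 25.7% of genes.

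**Figure D5:**
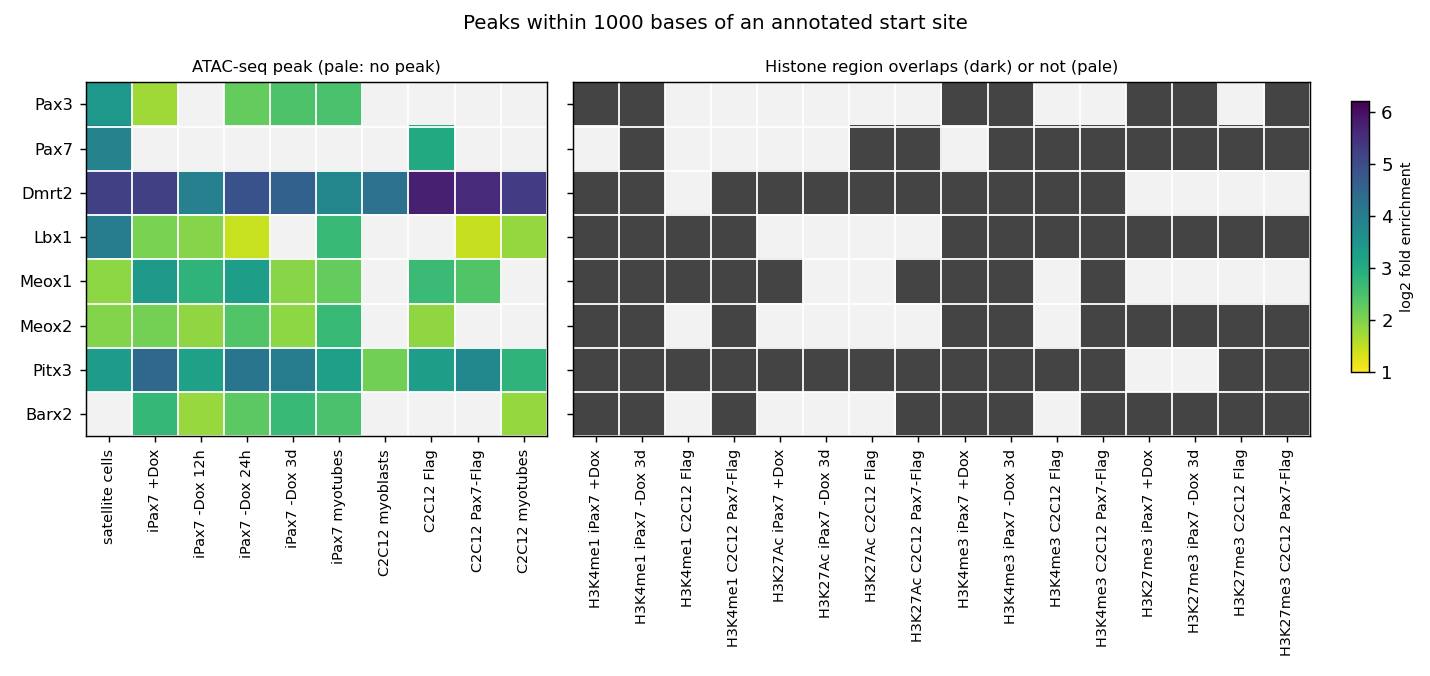
Rows are the 8 genes; the left panel gives the log2 fold enrichment of the strongest ATAC-seq peak within 1000 bases of a start site (pale where there is none), and the right panel whether a histone region lies there. Dmrt2 and Pitx3 have a peak in all 10 conditions, and the Pax7 start has none in the 5 iPax7 conditions.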

How the data were processed

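Processed RNA-seq, ATAC-seq and ChIP-seq files were used as deposited. Each RNA-seq replicate was deposited as whole-number counts by gene symbol; the submitters' processing notes name TopHat2 2.0 and HTSeq 0.6. Per the file headers and methods, ATAC-seq peak files were deposited with a fold enrichment and −log10 p and q values from MACS2 2.0.10, after Bowtie2 2.2.6 alignment to mm9 and merging of replicates. Histone regions and Pax7 regions came from Qeseq as intervals; the Pax7 list kept regions found in several +Dox replicates and in no -Dox replicate, and histone replicates were merged before calling. An absent region therefore carries no error estimate.

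Rows that name no gene (9.19% to 9.93% of counted reads in iPax7 cells, 25.1% to 32.4% in satellite cells) were left out. Gene counts ran from 39010958 to 54674619 per replicate. Replicates are the files within each sample; nothing says that they came from separate cultures or animals, so p-values measure only the spread between these files, and they differed beyond sampling noise. Counts were tested in edgeR 4.0.16 (R 4.3.3) with TMM factors, filterByExpr and the quasi-likelihood test, all 8 replicates in 1 fit, and Benjamini-Hochberg adjustment over 14836 genes at 0.05. For normalized counts, each library was scaled by its TMM effective size to the geometric mean of those sizes. SE was taken from the log2 fold change and the root of its F statistic. The fit was tested on simulated data. Coordinates and exon lengths are from GENCODE M1 on NCBIM37, the build of mm9; 0 regions ran past a chromosome end.

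Each Pax7 region went to the gene with the nearest annotated start site. Overlap with a peak needed 1 base. Alternatives used DESeq2 1.42.0, RLE scaling, other filters, fewer samples and other overlap rules. Genes named are the 8, genes of the other lists called after withdrawal, and the 3 most alike per member; a list of paralogs is not reported here. The members and lists were chosen with earlier results of these data known.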

Additional observations from a re-analysis of the deposited data

How the results depend on the processing

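After withdrawal, the members called went from 1 to 2 in a fit of the 2 groups alone, to 3 in DESeq2 and to 1 to 2 when 1 replicate was left out (2 without -Dox 3d replicate 2 or satellite cell replicate 2); against satellite cells, -Dox 3d gave 5 in DESeq2 in place of 3, and 2 to 4 with 1 replicate left out. Over all genes, withdrawal gave 1142 calls, 2155 in the fit of the 2 groups, 2275 in DESeq2 and 488 to 1444 with 1 replicate left out (674 and 630 without +Dox replicates 1 and 2, 508 and 488 without -Dox 3d replicates 1 and 2). In -Dox 3d against satellite cells, 5780 calls became 3204 and 3382 without -Dox 3d replicates 1 and 2. Replicate numbers did not pair the samples: same-numbered deviations correlated at -0.0398 to 0.0272. With the replicate block, withdrawal gave 4017 calls and 2 members; Pax3 turned to -0.53 after withdrawal and Meox1 to 1.02 in +Dox over satellite cells, and Dmrt2 against satellite cells in -Dox 3d was no longer called (adjusted p = 0.0896). Other signs turned for values not called in the report: leaving out single replicates, Pax3 after withdrawal ran from -1.85 (without -Dox 3d replicate 2) to 1.17, Meox2 after withdrawal from -1.69 (without -Dox 3d replicate 1) to 7.23, Meox1 in +Dox over satellite cells from -0.93 to 1.06 (0.07 without +Dox replicate 1, 1.06 without satellite cell replicate 1) and Pitx3 there from -0.33 to 1.44 (-0.03 without +Dox replicate 3, -0.33 without satellite cell replicate 3). The remaining 268 single-gene values kept direction and call, with 15 more passing and 4 no longer passing. Causes were not tested. Pax7 kept its calls in all 3 comparisons under every alternative run.

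Within 500 kb of a start site, 20 Pax7 regions lay at the 8 genes, 10 by nearest start. With a −log10 q of at least 10, regions under a peak numbered 4 in satellite cells, 3 in iPax7 myotubes, 1 in C2C12 myoblasts and 2 in C2C12 myotubes, and starts with a peak 3 at 12 h, 1 in C2C12 myoblasts and 2 in C2C12 myotubes. Where a peak had to cover 50% of the region, counts were 2 in iPax7 myotubes, 1 for H3K27Ac at 3 days, 0 for H3K27me3 in the Flag control and 4 for H3K4me3 in +Dox. Without the 3 Pax7 regions, a choice made after seeing the data, H3K27me3 lay at 1 in +Dox and 0 at 3 days, in place of 3 and 2. The other 87 region counts stayed within 1.5 times.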
